A study of Homo sapiens with 4 samples.

Results

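Chromosome 16 carried 8508 of the 250225 ATAC-seq peaks listed for 4 libraries of HK1 cells, a nasopharyngeal carcinoma line, and all of these peaks were taken, in GRCh38 coordinates and in bins of 5 Mb. The WT list held 2174 of them among 59629 peaks, the WT-IFN-γ list 2388 among 67470, the sgFLI1 list 2026 among 63203 and the sgFLI1-IFN-γ list 1920 among 59923. The chromosome was selected on measured values, namely the low summit pileups of its peaks in FLI1-KO cells relative to WT cells, so those ratios, and the peak counts and unmatched shares that go with them, are given as a description with no test. The study asked how loss of FLI1, a transcription factor of the ETS family, changes accessible chromatin in tumor cells with and without interferon-γ. The 4 groups were untreated WT cells, WT cells given IFN-γ for a day, untreated cells with FLI1 knocked out by CRISPR (sgFLI1) and the same knockout given IFN-γ. Each group had 1 peak list, so there is no replicate error, no p-value could be given, and every interval below covers counting error only. Which guide was used, whether the FLI1-KO cells were 1 clone or a pool, and whether WT cells carried a control guide are not given in the sources used here.

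Around the start site of FLI1 itself, on chromosome 11, a peak was listed in WT (12 tags at its summit) and in WT-IFN-γ (22 tags) and in neither FLI1-KO list, although a promoter peak is no check of an edit in the coding sequence. Of 10 genes typical of squamous epithelium, 8 had a promoter peak in WT and sgFLI1 and 7 in the IFN-γ libraries, with KRT14 and TP63 absent from all 4 lists. Of 6 lymphocyte genes, 0 had one in any list, while 2 of 4 fibroblast genes (COL1A1 and COL1A2) had one in every list. Of 3 endothelial genes, CDH5, on chromosome 16, had one in WT and sgFLI1-IFN-γ only, and PECAM1 and VWF had none.

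ATAC-seq reads where a transposase can cut DNA, so a peak marks a stretch of open chromatin such as a promoter or an enhancer, and the number of tags at its summit grows with how often that stretch is cut. A tag count at a peak therefore depends both on how open each DNA copy is and on how many copies the cells carry, and peak lists cannot tell these apart. Chromosome 16 is a gene-dense chromosome that holds CIITA, the master regulator of MHC class II genes, the histone acetyltransferase gene CREBBP, the metallothionein cluster and a large group of cadherin genes.

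For orientation, 6 stretches of 201 bp, each centred on a summit, show the kinds of region the values below turn on. They were read from the plus strand of GRCh38, with capitals marking any match to an AP1 (TGANTCA), IRF (GAAANNGAAA), ETS (CCGGAAGT), CTCF (CCANNAGNNGGC) or GC box (GGGCGG) sequence on either strand. The CREBBP promoter (chr16:3880808-3881008) lay in a peak that differed little between genotypes. The region upstream of HAPSTR1 (chr16:9079035-9079235) was the most significant one listed in WT cells only. CIITA intron 1 (chr16:10878756-10878956) was listed in WT-IFN-γ alone. An intron of CDH8 (chr16:61792426-61792626) held the highest peak of a long stretch with peaks in WT cells only. The region upstream of CDH11 (chr16:65393146-65393346) had the largest FLI1-KO over WT ratio among peaks in all 4 lists, and the one upstream of FOXF1 (chr16:86472050-86472250) was listed in both FLI1-KO libraries only.
CREBBP promoter: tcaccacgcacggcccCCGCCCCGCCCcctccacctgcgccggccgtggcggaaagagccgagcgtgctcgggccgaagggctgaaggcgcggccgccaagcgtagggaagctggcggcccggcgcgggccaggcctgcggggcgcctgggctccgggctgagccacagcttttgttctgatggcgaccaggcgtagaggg
HAPSTR1 upstream: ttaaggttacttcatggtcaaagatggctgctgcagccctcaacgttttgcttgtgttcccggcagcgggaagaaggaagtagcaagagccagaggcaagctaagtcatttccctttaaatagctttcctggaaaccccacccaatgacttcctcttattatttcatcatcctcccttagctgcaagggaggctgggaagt
CIITA intron 1: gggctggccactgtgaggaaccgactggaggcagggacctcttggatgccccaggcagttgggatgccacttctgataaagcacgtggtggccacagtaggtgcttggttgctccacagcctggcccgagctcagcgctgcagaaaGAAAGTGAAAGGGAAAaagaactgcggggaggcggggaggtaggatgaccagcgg
CDH8 stretch: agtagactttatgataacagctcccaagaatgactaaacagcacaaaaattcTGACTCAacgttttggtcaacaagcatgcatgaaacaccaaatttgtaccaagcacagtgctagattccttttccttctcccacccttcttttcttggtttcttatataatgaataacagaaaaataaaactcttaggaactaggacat
CDH11 upstream: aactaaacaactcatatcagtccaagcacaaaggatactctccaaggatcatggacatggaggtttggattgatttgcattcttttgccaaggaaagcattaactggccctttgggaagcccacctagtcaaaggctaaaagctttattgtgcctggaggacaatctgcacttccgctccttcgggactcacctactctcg
FOXF1 upstream: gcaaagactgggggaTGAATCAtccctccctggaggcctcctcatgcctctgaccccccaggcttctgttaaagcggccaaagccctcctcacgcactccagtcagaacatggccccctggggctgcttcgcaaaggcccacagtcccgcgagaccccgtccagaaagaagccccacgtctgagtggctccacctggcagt
The CREBBP stretch held GC boxes, the CIITA stretch held overlapping IRF matches, the CDH8 and FOXF1 stretches each held an AP1 match, and none of the 5 sequences occurred in the stretches near HAPSTR1 and CDH11. A match is a description of the letters and not a bound site.

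Fewer chromosome 16 peaks were listed in FLI1-KO than in WT cells. Without IFN-γ the count was lower by 148 peaks, a change of -6.81%, while the count over all chromosomes changed by 5.99%. With IFN-γ it was lower by 468 peaks, a change of -19.6% against -11.2% over all chromosomes. Among peaks with a −log10 q of at least 10, the untreated change was -9.79% against -2.53% over all chromosomes, and the treated one -22.9% against -18.6%. Among 23 chromosomes, 16 stood 2nd from the lowest change without IFN-γ and 3rd with it. When the lists were cut to equal size, chromosome 16 changed by -10.3% without IFN-γ and -10.4% with it. As a share of the list, chromosome 16 held 3.65% of peaks for WT (95% Wilson interval 3.50 to 3.80), 3.54% for WT-IFN-γ (3.40 to 3.68), 3.21% for sgFLI1 (3.07 to 3.35) and 3.20% for sgFLI1-IFN-γ (3.07 to 3.35). The longest stretch without any peak, 9.41 Mb around the centromere, divided the short from the long arm. On the short arm the 4 counts were 952 for WT, 1010 for WT-IFN-γ, 865 for sgFLI1 and 824 for sgFLI1-IFN-γ, and on the long arm they were 1222, 1378, 1161 and 1096, so both arms had fewer peaks in FLI1-KO under either treatment.

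The chromosome was divided into 19 bins, of which 1 held no peak and 15 held at least 20 peaks in every list. Without IFN-γ 14 of these 15 bins had fewer sgFLI1 than WT peaks, and with IFN-γ all 15 had fewer in sgFLI1-IFN-γ than in WT-IFN-γ. With IFN-γ every chromosome had fewer FLI1-KO peaks, from -29.9% on chromosome 18 to -3.62% on chromosome 21. Bins of other chromosomes were not counted in this way. The bin from 5 to 10 Mb, which contains the neuronal splicing gene RBFOX1, had 58 peaks for WT, 54 for WT-IFN-γ, 40 for sgFLI1 and 36 for sgFLI1-IFN-γ. The bin from 75 to 80 Mb had 68 peaks for WT, 85 for WT-IFN-γ, 63 for sgFLI1 and 49 for sgFLI1-IFN-γ, so that its FLI1-KO over WT ratio went from 0.926 without IFN-γ to 0.576 with it. These were not the bins with most peaks. From 0 to 5 Mb the counts were 351, 369, 340 and 334 in the same order, and from 85 to 90 Mb they were 302, 334, 293 and 285.

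**Figure D1:**
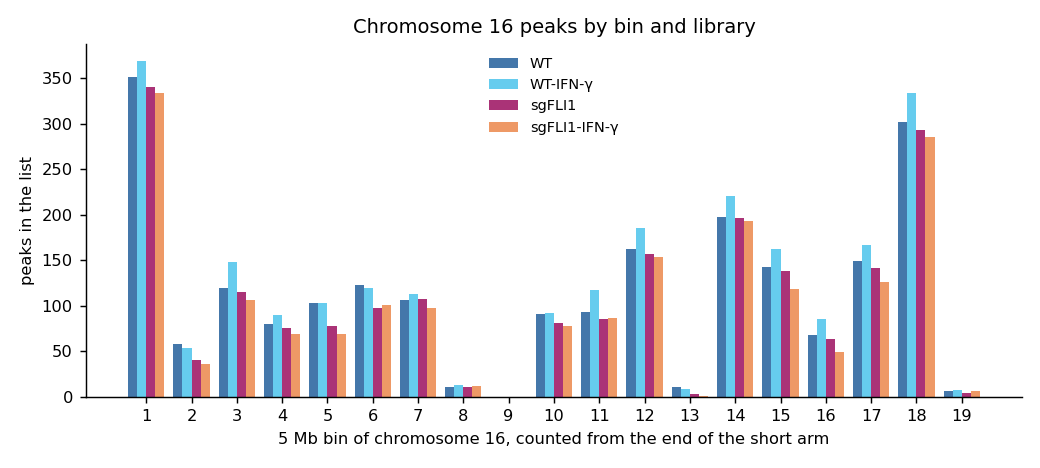
Number of listed peaks (y axis) in each 5 Mb bin of chromosome 16 (x axis, bin number from the end of the short arm), with 1 bar per library. The FLI1-KO bar stands below the WT bar of the same treatment in nearly every bin. Bin 9 lies within the longest stretch without any peak and is empty, and in bin 13 the WT lists have 11 and 9 peaks against 3 and 1.

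Peaks were then matched between lists, a peak being called unmatched when it shared no base with any peak of the other list. Of the 2026 sgFLI1 peaks, 338 (16.7%, interval 15.1 to 18.4) were not matched in WT, against 25.3% over all sgFLI1 peaks. In the opposite direction 499 of 2174 WT peaks (23.0%, 21.2 to 24.8) were not matched in sgFLI1, against 21.4% over all WT peaks. With IFN-γ 226 of 1920 sgFLI1-IFN-γ peaks (11.8%, 10.4 to 13.3) were not matched in WT-IFN-γ, against 19.8% over the list, and 697 of 2388 WT-IFN-γ peaks (29.2%, 27.4 to 31.0) were not matched in sgFLI1-IFN-γ, against 29.0%. Chromosome 16 thus differed from the whole lists in having a smaller share of peaks listed in FLI1-KO only. Merged over the 4 lists, the peaks formed 3008 regions, of which 1499 were in every list. WT alone had 225 of them (7.48%, 6.59 to 8.47, against 5.93% over all chromosomes). Another 159 regions were in both WT lists and no FLI1-KO list (5.29% of regions, against 4.20% over all chromosomes), and 65 were in both FLI1-KO lists and no WT list (2.16% against 3.56%).

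Unmatched peaks were small and rarely at promoters. The median summit pileup was 16 tags for the WT peaks not matched in sgFLI1 and 55 tags for the matched ones, and 13 tags against 41 for sgFLI1 peaks. Of the unmatched WT peaks 4.81% lay within 1 kb of a start site, against 27.8% of the matched ones. GC boxes, common in promoters, were within 100 bp of the summit in 9.02% of unmatched WT peaks (6.81 to 11.9) and in 32.7% of matched ones (30.5 to 34.9). The AP1 sequence was in 28.7% of sgFLI1 peaks not matched in WT (24.1 to 33.7) and in 14.6% of WT peaks not matched in sgFLI1, and over all chromosomes these shares were 25.2% and 18.3%. The IRF sequence, bound by interferon regulatory factors, was in 9.04% of WT-IFN-γ peaks not matched in sgFLI1-IFN-γ (7.13 to 11.4) and in 2.48% of the matched ones (1.84 to 3.34), and over all chromosomes 10.8% of the unmatched peaks had it.

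The 3 most significant unmatched peaks of each list were named by their gene or nearest start site. Of WT peaks not matched in sgFLI1, the first was 12.5 kb upstream of HAPSTR1, a regulator of stress signalling, with 100 tags for WT (95% Poisson interval 81.4 to 122) and 122 tags for WT-IFN-γ (101 to 146), in the stretch printed above. Neither FLI1-KO list had a peak there. The next was in intron 1 of SPIRE2, an actin nucleation factor (chr16:89833651-89834138), with 80 tags for WT and 82 for WT-IFN-γ and no FLI1-KO peak. The third, in intron 3 of EEF2KMT, a lysine methyltransferase, was in WT alone with 52 tags (chr16:5092218-5092525). In the direction of FLI1-KO, a peak 38.4 kb upstream of the forkhead gene FOXF1 had 51 tags for sgFLI1 (38.0 to 67.1) and 50 for sgFLI1-IFN-γ (37.1 to 65.9), and was in neither WT list. A peak 144 kb upstream of the zinc finger gene ZNF469 had 69 tags for sgFLI1 and was in no other list (chr16:88238728-88239002). At FOXF1 itself the promoter peak went the other way, with 51 and 73 tags for the WT libraries and 32 and 26 for the FLI1-KO libraries (untreated first). In intron 11 of the muscle cadherin gene CDH15 a peak had 60 tags for sgFLI1, 54 for sgFLI1-IFN-γ and 71 for WT-IFN-γ, so only untreated WT lacked it. Against WT-IFN-γ, the sgFLI1-IFN-γ list also had unmatched peaks 406 kb downstream of the SHISA9 start site (33 tags, and 26 for sgFLI1) and in intron 1 of the channel-like gene TMC7 (39 tags, and 44 for sgFLI1).

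The top 3 WT-IFN-γ peaks not matched in sgFLI1-IFN-γ also included regions at CIITA and near NPIPB4. In CIITA intron 1, downstream of the start site (chr16:10878174-10879016), WT-IFN-γ had 128 tags (107 to 152) and the other 3 lists had no peak, and the printed stretch carries the IRF matches. A peak 88.2 kb from the NPIPB4 start site (chr16:21769337-21769693) had 62 tags for WT-IFN-γ, 53 for WT, 26 for sgFLI1 and none in sgFLI1-IFN-γ. The sgFLI1 value was thus the lowest of those listed at this region, and the missing sgFLI1-IFN-γ peak sets no level.

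For peaks that overlapped one to one between lists, the summit pileup was divided by the tag density of its library, which was 8.04 tags per kb for WT, 8.84 for WT-IFN-γ, 6.93 for sgFLI1 and 6.86 for sgFLI1-IFN-γ. The log2 ratio between libraries was centred on the median of all such peaks whose pileups summed to more than 60 tags. Of the 2026 sgFLI1 peaks 338 were unmatched, 53 overlapped several or shared a partner, 495 fell under the minimum and 1140 gave a ratio. With IFN-γ, 1165 gave a ratio. These are the values that chose the chromosome, so no test was run.

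Summit pileups of chromosome 16 were lower in FLI1-KO. The median centred log2 ratio of sgFLI1 over WT was -0.30 (quartiles -0.54 and -0.08), a ratio of 0.812, and 938 of 1140 peaks (82.3%) were below 0. For sgFLI1-IFN-γ over WT-IFN-γ, which share no library with the former pair, it was -0.27 (-0.47 and -0.04), a ratio of 0.828, with 910 of 1165 peaks (78.1%) below 0. Both medians were the 2nd lowest among 23 chromosomes, above chromosome 18 (-0.35 and -0.40). Chromosomes 19 and 9 came next, between -0.23 and -0.18, and chromosome 13 was highest at 0.21 and 0.14. The arms had like values, with -0.27 on the short arm and -0.33 on the long arm without IFN-γ and -0.27 and -0.28 with it. In the 1051 peaks matched across all 4 lists, the median summit pileup was 86 tags for WT, 89 for WT-IFN-γ, 60 for sgFLI1 and 55 for sgFLI1-IFN-γ. Over tag density, these medians stood at 1.23 times the median of all chromosomes in WT and 1.17 times in WT-IFN-γ, and at 0.952 and 0.965 times in the FLI1-KO libraries. Of these peaks 743 (70.7%) were lower in FLI1-KO under both treatments, against 29.9% in the rest of the genome, and 91 (8.66%) were higher under both, against 8127 of 23905 in the rest of the genome.

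**Figure D2:**
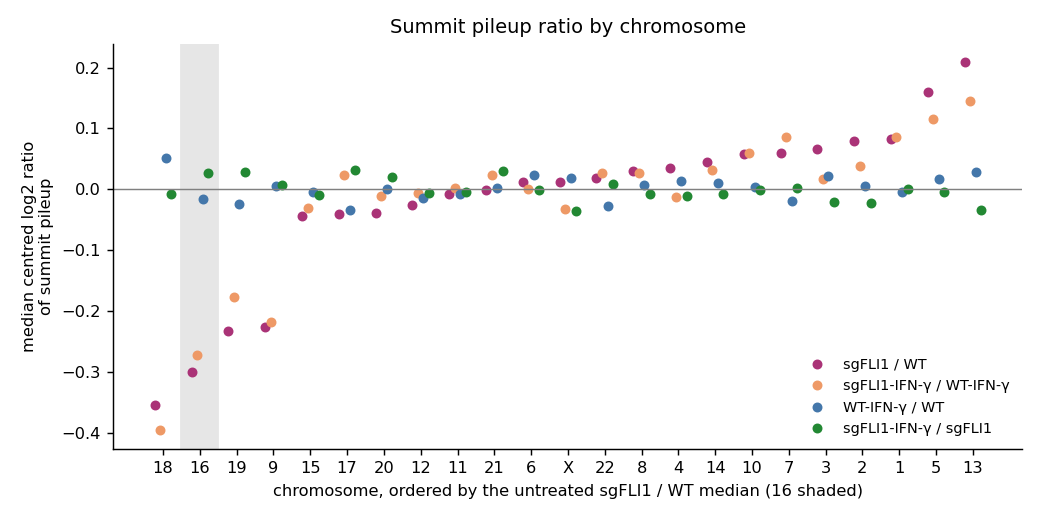
Median centred log2 ratio of summit pileup (y axis) for each of 23 chromosomes (x axis, ordered by the untreated FLI1-KO over WT value), with 1 point per comparison. Chromosome 16, shaded, sits at -0.30 and -0.27 for FLI1-KO over WT and at -0.02 and 0.03 for IFN-γ over untreated.

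Past 1.5-fold, 229 of 1140 chromosome 16 peaks (20.1%) were lower in sgFLI1, against 7.31% of all peaks with a ratio, and 30 (2.63%) were higher, against 8.63%. With IFN-γ 192 of 1165 (16.5%) were lower, against 8.24%, and 39 (3.35%) were higher, against 7.49%. The difference was spread over the chromosome. All 15 bins with at least 20 ratios had a median below 0 in both comparisons, from -0.53 (20 to 25 Mb) to -0.21 (45 to 50 Mb) without IFN-γ and from -0.39 (50 to 55 Mb) to -0.18 (0 to 5 Mb) with it. In the rest of the genome 149 of 414 such bins had a median below 0 without IFN-γ and 172 of 422 with it. In bins of 10 Mb, all 9 with at least 20 ratios were below 0 in both comparisons. From 20 to 35 Mb the 3 bins had between 85.9% and 96.5% of their peaks below 0 without IFN-γ.

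**Figure D3:**
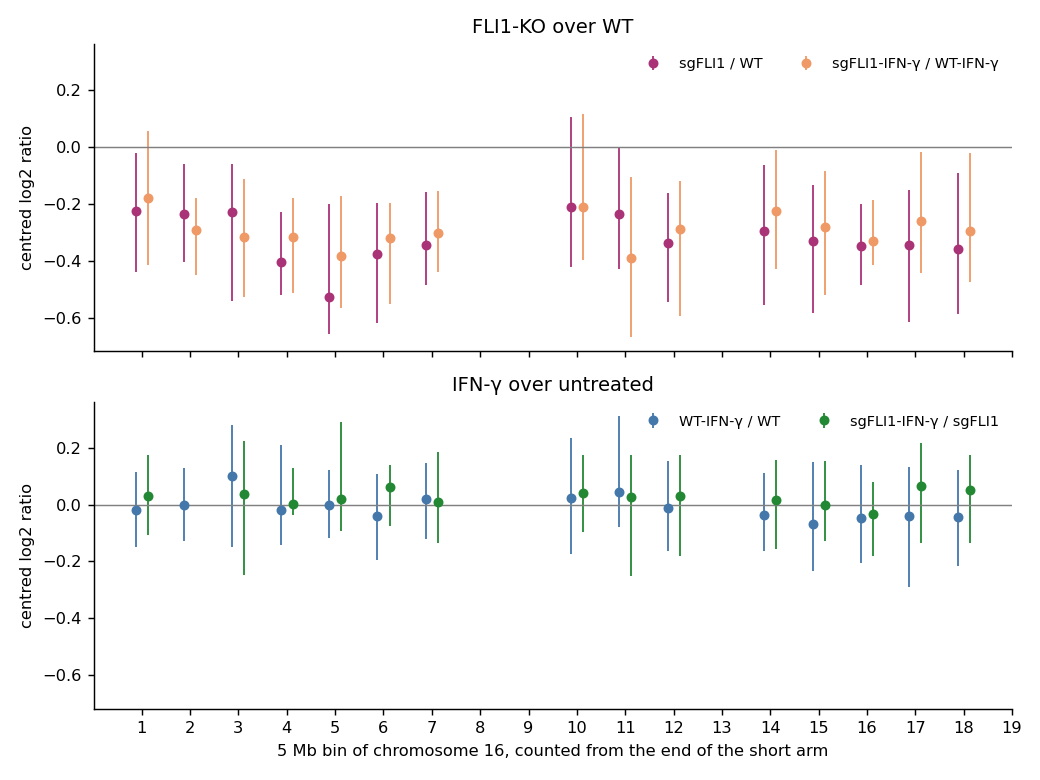
Median centred log2 ratio (points) with quartiles (bars) in each 5 Mb bin of chromosome 16 with at least 20 one-to-one peaks, for FLI1-KO over WT (upper panel) and IFN-γ over untreated (lower panel). All FLI1-KO over WT medians lie between -0.53 and -0.18, and the IFN-γ medians lie between -0.07 and 0.10.

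Medians of 2 stretches, the first 2 Mb and the flank of the centromere, are given beside those of the remainder of the arms. They were chosen after their values had been seen, in windows of 1 Mb, and are descriptions. From 0 to 2 Mb the median was -0.09 over 100 peaks without IFN-γ and -0.01 over 105 peaks with it. Between 2 and 34 Mb it was -0.33 (424 peaks) and -0.31 (429 peaks), and between 46 and 90 Mb it was -0.33 (607 peaks) and -0.28 (622 peaks). In the gene-poor stretch between 34 and 36 Mb, next to the centromere, the medians were 0.50 over 6 peaks and 0.51 over 5 peaks, so that few peaks carried this value. Other windows of few peaks also had medians above 0, such as 0.17 over 7 peaks from 51 to 52 Mb without IFN-γ.

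Peaks of different kinds shared the lower level. At promoters, with the summit within 1 kb of a start site, the median was -0.34 over 433 peaks without IFN-γ and -0.31 over 435 peaks with it, and at other peaks it was -0.27 over 707 and -0.25 over 730. Promoter peaks of the rest of the genome had medians of -0.01 and 0.01. Chromosome 16 peaks were richer in G and C than the lists as a whole (median 56.7% against 51.2% in WT), and the ratio was therefore compared within 5 GC classes. In every class the chromosome 16 median was below that of the rest, by a log2 difference of -0.37 to -0.29 without IFN-γ and of -0.34 to -0.20 with it. Within 5 classes of summed pileup the differences were -0.35 to -0.29 and -0.29 to -0.24. The local background that MACS estimated from a wider window around each peak moved the same way. It came from the same deposited values as the pileups, so it is no independent measure. Only peaks where it exceeded the library background in both lists were used. Its median centred log2 ratio was -0.36 over 1134 peaks without IFN-γ and -0.30 over 1155 peaks with it, again 2nd lowest among the chromosomes. With the local background subtracted from each pileup, the median centred log2 ratios of the summits were -0.30 without IFN-γ and -0.27 with it. The part of the local background in the lower summit pileups was not tested further.

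Some peaks were higher in FLI1-KO, against the median of the chromosome. They were picked as the extremes of the measured ratios among peaks in all 4 lists, which makes their size a description. From here on, 4 values in a row are for WT, then WT-IFN-γ, then sgFLI1, then sgFLI1-IFN-γ. The highest ratio lay 271 kb upstream of CDH11, a cadherin of mesenchymal cells (chr16:65392781-65393822), where WT had 16 tags (9.15 to 26.0), WT-IFN-γ 11 (5.49 to 19.7), sgFLI1 75 (59.0 to 94.0) and sgFLI1-IFN-γ 54 (40.6 to 70.5). The centred log2 ratios were 2.40 and 2.72, and the counting intervals of the genotypes did not overlap. In intron 1 of EMP2, which encodes an epithelial membrane protein (chr16:10558786-10559580), the counts were 30, 19, 75 and 54 tags, with ratios of 1.49 and 1.93. In intron 14 of VAC14, a scaffold of phosphoinositide synthesis, the values were 50, 44, 89 and 77 tags, again without overlap of the intervals. An intergenic region nearest to the actin-responsive cofactor gene MRTFB had 30, 19, 53 and 42 tags, and there the untreated intervals overlapped.

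At the other extreme, intron 5 of CDH13, the gene of the membrane-anchored T-cadherin, had 50 tags for WT, 59 for WT-IFN-γ, 12 for sgFLI1 and 14 for sgFLI1-IFN-γ (chr16:83343845-83344612, log2 ratios -1.89 and -1.65). Upstream of SRL, a muscle calcium store gene, the values were 50, 54, 14 and 14 tags. The peak over exon 1 of MLYCD, the malonyl-CoA decarboxylase gene (chr16:83898558-83899726), had 76, 62, 24 and 19 tags, with log2 ratios of -1.49 and -1.28. A peak 10.3 kb upstream of the telomere factor gene TERF2 was the tallest of the 8 lowest, with 135, 115, 45 and 43 tags. In each of these, also picked by their ratios, the counting intervals of WT and FLI1-KO did not overlap under either treatment. The intervals are of tags as counted, before correction for the lower tag density of the FLI1-KO libraries.

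One stretch had peaks in WT cells and none in FLI1-KO cells. Reading the summits of all 4 lists along the chromosome, the longest run from WT lists without a FLI1-KO summit between them held 17 peaks, 10 of WT and 7 of WT-IFN-γ, over 2.42 Mb (chr16:60945169-63361663). Chromosome 16 stood at rank 6 of 23 by this length, level with X, the longest run held 35 peaks on chromosome 12, and on chromosome 16 the longest run of FLI1-KO summits held 6 peaks. The only protein-coding gene in the stretch was CDH8, a cadherin of neurons. Its highest peak lay in intron 7 (chr16:61791586-61793121) with 40 tags for WT (28.6 to 54.5) and 34 for WT-IFN-γ (23.6 to 47.5). Peaks in intron 2 (24 and 20 tags) and 190 kb upstream (27 and 29 tags) were also in both WT lists. The summed summit pileup of the stretch was 198 tags for WT, 146 for WT-IFN-γ and 0 in the FLI1-KO lists, which name only peaks past the caller's limit.

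Further along, around the neighbouring cadherin gene CDH11, the order turned over. Over CDH11 and 500 kb upstream of it (chr16:64943753-65622063) the WT libraries had 4 peaks untreated and 2 with IFN-γ, and the FLI1-KO libraries had 7 and 8. Besides the peak 271 kb upstream, a second one at 293 kb had 16 tags for WT, 14 for WT-IFN-γ, 41 for sgFLI1 and 39 for sgFLI1-IFN-γ. A peak in intron 1 of CDH11 was in sgFLI1 (18 tags) and sgFLI1-IFN-γ (10 tags) only. Neither CDH8 nor CDH11 had a peak at its start site in any list. Most of these peaks were small, and both stretches were picked after their values had been seen.

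**Figure D4:**
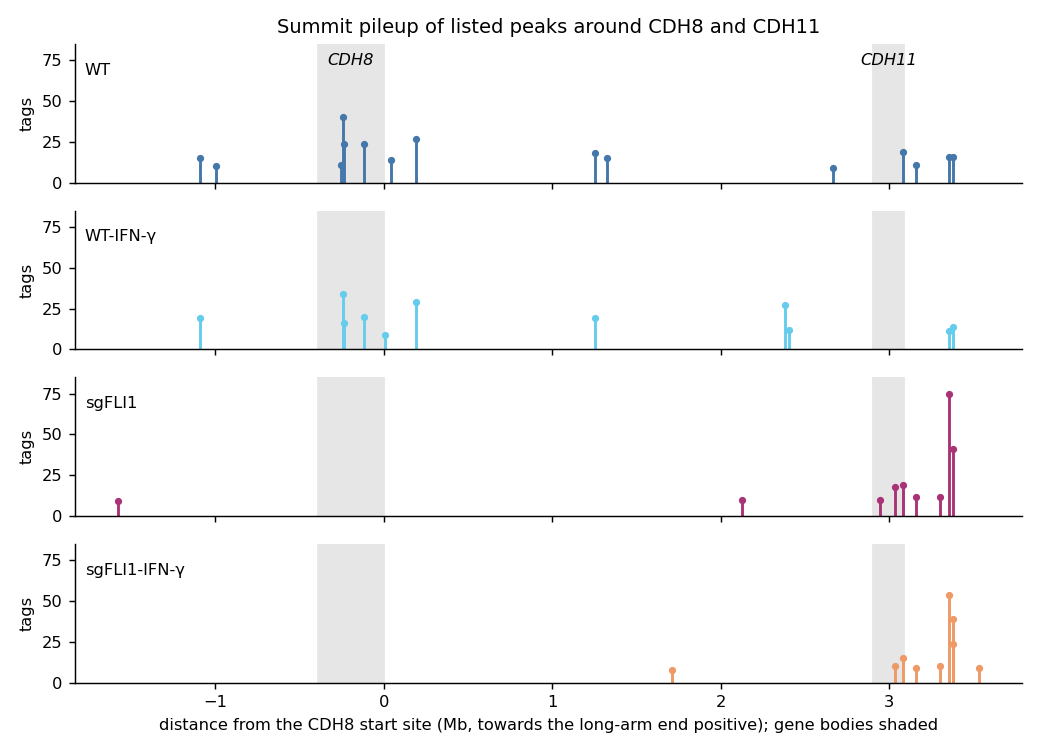
Summit pileup in tags (y axis) of every listed peak around CDH8 and CDH11, by distance from the CDH8 start site in Mb (x axis), with 1 panel per library and gene bodies shaded. The WT panels have peaks of up to 40 tags around CDH8 and the FLI1-KO panels none, and the tallest peaks upstream of CDH11 reach 75 and 54 tags in the FLI1-KO panels against 16 and 14 in the WT panels.

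At gene promoters the lower level was shared by most genes with a peak. Tags are given as counted, before the correction for depth, and ratios after it. Of 857 protein-coding genes on chromosome 16, 504 had the same promoter peak in all 4 lists, overlapping 1 kb around the start site with summits within 500 bp of each other. The median centred log2 ratio was -0.32 without IFN-γ and -0.30 with it, and 465 (92.3%) and 443 (87.9%) of the 504 were below 0. In the rest of the genome the shares were 51.6% and 48.4% of 10380 genes. Within 5 lists of 97 genes, written by function, 54 had such a peak, and of these 53 were below 0 without IFN-γ, 49 with it and 48 in both, with medians of -0.35 and -0.37. Of the 54, 0 were above 0 in both.

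Of 19 interferon and immune genes, 7 had the same promoter peak in every list and all 7 were lower in FLI1-KO under both treatments, with medians of -0.38 and -0.49. SOCS1, which curbs cytokine signalling, had 168 tags for WT, 161 for WT-IFN-γ, 122 for sgFLI1 and 102 for sgFLI1-IFN-γ (log2 ratios -0.29 and -0.24). PSMB10, a subunit of the immunoproteasome, had 157, 144, 107 and 86 tags in the same order, with the summit about 1 kb downstream of the start site. Its neighbours in level were CYLD, a deubiquitinase that restrains NF-κB, with 144, 142, 108 and 80 tags, and the TNF receptor adaptor gene TRADD, with 108, 113, 70 and 60 tags. In each of these 4 genes both FLI1-KO libraries were below both WT libraries, in tags and after division by tag density. Tags alone give this order over all chromosomes too, with medians of 70, 76, 63 and 57 at peaks in all 4 lists. NLRC5, the transactivator of MHC class I genes, had 71 tags for WT (55.5 to 89.6), 108 for WT-IFN-γ (88.6 to 130), 50 for sgFLI1 (37.1 to 65.9) and 48 for sgFLI1-IFN-γ (35.4 to 63.6), so its highest value was in treated WT cells and the FLI1-KO values lay within each other's intervals. IL32, a cytokine gene, had the lowest ratio of the 7 with IFN-γ (-1.65), from 63 tags for WT-IFN-γ to 15 for sgFLI1-IFN-γ, beside 32 for WT and 16 for sgFLI1. CIITA had no peak at its start site in WT, 111 tags for WT-IFN-γ (91.3 to 134), 20 for sgFLI1 (12.2 to 30.9) and 27 for sgFLI1-IFN-γ (17.8 to 39.3). IRF8, a regulator of myeloid cells, had no peak within 1 kb of its start site in any list, and 7 of the 19 genes were without one throughout.

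Of 29 chromatin and transcription factor genes, 21 had the same peak throughout and all 21 were below 0 in both comparisons, with medians of -0.34 and -0.36. SRCAP, a chromatin remodeller that loads a histone variant, had the tallest promoter peak of the lists, with 227 tags for WT, 214 for WT-IFN-γ, 141 for sgFLI1 and 113 for sgFLI1-IFN-γ. ZFPM1, a GATA cofactor, had 169, 174, 115 and 122 tags, ANKRD11, a chromatin regulator, 161, 194, 126 and 100, and the transcription factor gene E4F1 153, 173, 117 and 112. In all 4 genes both FLI1-KO values were below both WT values, also after division by tag density. CREBBP lay closest to 0 of the 21 without IFN-γ, at -0.03, with 86 tags (68.8 to 106) for WT, 94 (76.0 to 115) for WT-IFN-γ, 75 (59.0 to 94.0) for sgFLI1 and 65 (50.2 to 82.8) for sgFLI1-IFN-γ, and its treated log2 ratio was -0.11. Its intervals overlapped between genotypes under both treatments.

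Of 20 adhesion and epithelial genes, 6 had the same peak in all lists, 5 of them lower without IFN-γ, 4 with it and 3 in both. MMP15, a membrane-type matrix metalloproteinase, had 101, 93, 45 and 46 tags, with log2 ratios of -0.998 and -0.59. The serine protease gene PRSS27 had 106, 110, 87 and 73 tags. CDH15 had 103, 113, 93 and 65 tags and EMP2 had 92, 78, 60 and 62, and in both genes the sign of the ratio differed between treatments. ESRP2, an epithelial splicing factor, was not counted among the 6 because its summits lay apart. They were at 526, -230, -1585 and -1504 bp from the start site (negative is upstream), with 76, 79, 156 and 117 tags. These counts are of different sites and give no ratio between the genotypes. Of 11 metallothioneins, which bind zinc and copper, 3 had a peak. These were MT2A with 139, 136, 93 and 77 tags, MT1X with 105, 114, 84 and 68, and MT1F with 70, 82, 39 and 40. All 3 metallothionein peaks were lower in both FLI1-KO libraries, also after division by tag density. Their near-identical coding sequences lie side by side, which can make reads there hard to place.

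Of 18 genes of the core cell machinery, 17 had the same peak, all 17 below 0 without IFN-γ and 14 with it (medians -0.34 and -0.27). The glycolytic enzyme gene ALDOA had 195, 189, 132 and 120 tags. RPL13, of the large ribosomal subunit, had 157, 164, 102 and 82 tags, and RPS2, of the small one, had 170, 142, 136 and 109. RPS2 lies in the first 2 Mb of the chromosome, where the median ratio was close to 0, and its log2 ratios were -0.15 and 0.04.

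**Figure D5:**
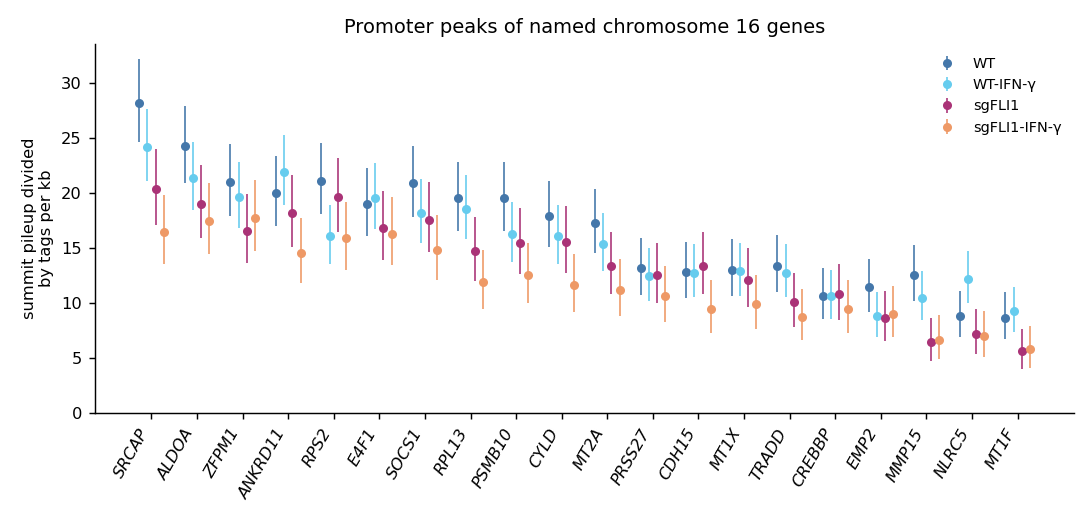
Summit pileup divided by the tags per kb of its library (y axis) at the promoter peaks of named chromosome 16 genes, ordered by their mean, with 1 point per library and bars for the exact 95% Poisson interval. Both FLI1-KO points lie below both WT points at SRCAP, PSMB10, TRADD and MT2A, while at CREBBP the intervals of the genotypes overlap.

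The IFN-γ ratios of chromosome 16 lay near 0. These comparisons share their libraries with the ones above, and the chromosome had not been selected on them. The median centred log2 ratio of WT-IFN-γ over WT was -0.02 over 1288 peaks and that of sgFLI1-IFN-γ over sgFLI1 was 0.03 over 1038 peaks. Past 1.5-fold in WT, 48 peaks (3.73%) were higher with IFN-γ, against 6.02% of all peaks, and 24 (1.86%) were lower, against 2.51%. In sgFLI1, 21 (2.02%) were higher, against 1.67%, and 14 (1.35%) were lower, against 1.00%. Over 23 chromosomes the medians had an SD of 0.02 in both IFN-γ comparisons, and of 0.14 and 0.13 in the FLI1-KO over WT comparisons. The peak count changed by 9.84% in WT (13.1% over all chromosomes) and by -5.23% in sgFLI1 (-5.19% over all chromosomes).

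Of the WT-IFN-γ peaks, 522 (21.9%) were not matched in WT, against 25.2% over the list, and 314 WT peaks (14.4%) were not matched in WT-IFN-γ, against 15.9%. For sgFLI1 the shares were 254 (13.2%) against 18.0%, and 357 (17.6%) against 22.2%. The 3 most significant WT-IFN-γ peaks not matched in WT were CIITA intron 1, another peak near CIITA and an intergenic peak nearest to CX3CL1. A peak 5.61 kb upstream of the CIITA start site (chr16:10870743-10871988) had 136 tags for WT-IFN-γ (114 to 161), none in WT, 30 for sgFLI1 and 38 for sgFLI1-IFN-γ. A peak 4.93 kb upstream of CX3CL1, a membrane-bound chemokine gene (chr16:57367001-57367995), had 84 tags for WT-IFN-γ (67.0 to 104), none in WT, 10 for sgFLI1 and 13 for sgFLI1-IFN-γ. At both regions the FLI1-KO libraries listed a low peak with and without IFN-γ, and the treated WT value was the highest of the 4. No list had a peak within 1 kb of the CX3CL1 start site. The most significant sgFLI1-IFN-γ peak not matched in sgFLI1 lay 3.42 kb upstream of the cell cycle kinase gene PKMYT1, with 73 tags with IFN-γ, and it was also in WT (78 tags) and WT-IFN-γ (92 tags).

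Sequence played no part in the selection, and the motif shares of chromosome 16 summits are set beside those of the whole lists. The GC box was within 100 bp of 27.2% of WT summits on the chromosome (25.4 to 29.1) and of 19.6% of all WT summits, and in the 4 lists it ranged from 25.9% to 29.8% there against 18.3% to 19.9% overall. The ETS sequence, the kind FLI1 and its relatives can bind, was near 2.16% of WT summits (1.63 to 2.86) and 2.12% of sgFLI1 summits (1.58 to 2.85), so these intervals overlapped. Over all chromosomes the shares were 1.42% and 1.39%. AP1 was near 18.5% of WT summits (17.0 to 20.2) against 21.9% of all WT summits. The IRF sequence was near 1.89% of WT summits, 4.40% in WT-IFN-γ (3.65 to 5.30), 1.83% in sgFLI1 and 2.08% in sgFLI1-IFN-γ (1.53 to 2.82). The higher share was thus in treated WT cells, on chromosome 16 as over all chromosomes (5.60% of WT-IFN-γ summits and 2.67% of sgFLI1-IFN-γ summits).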

How the data were processed

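ATAC-seq peak lists of HK1 cells were used, 1 library for each of 4 groups. Per the study's methods and the submitters' processing notes, reads were trimmed with Trimmomatic 0.3, aligned to GRCh38 with Bowtie2 2.3.4.1 and called with MACS2 2.1.2 at a q-value of 0.05, after removal of duplicates and of alignments with a mapping quality under 30. The methods also describe a filter that kept peaks reproducible between replicates (IDR of at most 0.05). Whether a list is 1 replicate or a pool, whether it precedes or follows that filter and whether tag ends were shifted are not given in the sources used here. In the deposited files the authors gave each peak a score, a fold enrichment (a ratio) and −log10 p and −log10 q values at the summit. These served to recover pileups, to rank and to filter.

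The whole-number pileup and local background behind each deposited fold and −log10 p were solved from the Poisson formula of MACS, which succeeded for 100% of peaks. Tag density was the lowest local background of a list divided by the length of its shortest peak. Pileups over tag density were compared, for peaks that overlapped one to one and summed to over 60 tags, and centred on the median of all such peaks. The scripts were tested on simulated data. Shares have 95% Wilson and pileups exact 95% Poisson intervals, which cover counting error only. Genes were the 19970 canonical protein-coding transcripts of GENCODE 44, of which 857 are on chromosome 16. Promoter values are those of the peak overlapping 1 kb around the start site whose summit is nearest, and the limit of 500 bp between summits was set after seeing the data. From each gene list up to 4 genes of highest mean level were named, among those with the same promoter peak in all 4 libraries by that limit. Also named were CIITA, CREBBP, SOCS1, NLRC5, PSMB10 and IRF8, and the 3 most significant unmatched peaks of each list against its pair. Of these, 1 gene is not reported here. Other genes were named after their values were seen. The members and lists were chosen with earlier results of these data known. The analysis ran in Python 3.11.15 with matplotlib 3.10.9, scipy 1.17.1, pandas 2.3.3 and numpy 2.4.6. Alternatives were other centrings, limits, overlaps, bins and windows.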

Additional observations from a re-analysis of the deposited data

Results flagged for a closer look

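The number of chromosome 16 peaks moved in opposite directions with IFN-γ in the 2 genotypes. It was higher by 214 in WT and changed by -106 in sgFLI1, although with lists of equal size both changes were negative (-1.43% and -1.59%). On the short arm the changes were 58 and -41, and on the long arm they were 156 and -65. The median centred log2 ratio of IFN-γ over untreated was likewise -0.0151 in WT and 0.0264 in sgFLI1, but without centring both were negative (-0.0770 and -0.13). Chromosome 16 followed the lists as a whole here, whose counts changed by 13.1% and -5.19%.

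At 3 named promoters the FLI1-KO over WT log2 ratio had opposite signs without and with IFN-γ. It was 0.0209 and -0.38 at CDH15, -0.45 and 0.0906 at EMP2, and -0.15 and 0.0403 at RPS2. With 1 library per group, none of these differences was tested.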

How the results depend on the processing

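No paired analysis was possible because each group had 1 library and the labels carry no replicate number. Of 108 recomputed values, 72 stayed within their counting interval or within 1.5 times their count. The FLI1-KO over WT median of all chromosome 16 peaks was below 0 under every alternative run. In bins of 1 Mb a minimum of 10 ratios was used. With IFN-γ 40 of 41 such bins were below 0 and the highest stood at 0.06. Without centring the medians were -0.25 without IFN-γ and -0.33 with it, and centred on 18 chromosomes (without 9, 13, 16, 18 and 19, a choice made after seeing the data) they were -0.34 and -0.31. With IFN-γ, promoter peaks alone gave -0.31 and other peaks -0.25. Peaks lower by 1.5-fold numbered 108 of 670 without IFN-γ and 89 of 675 with it at pileups summing to more than 120. With IFN-γ they were 302 of 1559 at more than 30. The main counts were 229 of 1140 without IFN-γ and 192 of 1165 with it. Shares over all chromosomes were not computed at the other limits. At a −log10 q of at least 10 there were 1578 peaks for WT-IFN-γ, 1317 for sgFLI1 and 1217 for sgFLI1-IFN-γ. With lists of equal size the FLI1-KO change was -10.3% without IFN-γ and -10.4% with it. The IFN-γ change in WT then turned to -1.43%, as fewer WT-IFN-γ peaks entered. Without centring the IFN-γ medians were -0.0770 in WT and turned to -0.13 in sgFLI1.

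Unmatched shares depended on the definition. For sgFLI1 against WT they were 27.3% without an overlap of 50% of both peaks, 23.1% without a summit within 250 bp, 8.86% at a −log10 q of at least 5 and 3.19% at 10, against 35.8%, 31.8%, 13.5% and 5.51% over all chromosomes. In the same order they were 32.2%, 28.4%, 13.8% and 7.26% for WT against sgFLI1 (31.9%, 27.7%, 12.4% and 6.04% overall), 22.2%, 18.5%, 5.50% and 1.73% for sgFLI1-IFN-γ against WT-IFN-γ (30.5%, 26.5%, 9.18% and 3.18%), and 37.5%, 34.5%, 18.8% and 11.0% for WT-IFN-γ against sgFLI1-IFN-γ (38.3%, 34.7%, 18.3% and 10.3%). The WT-IFN-γ share was thus below that of all chromosomes by overlap of 50% and by summit distance, and above it at both limits of q. Within 50 bp of the summit the WT shares were 16.6% for the GC box, 1.38% for ETS and 11.9% for AP1, and 2.76% of WT-IFN-γ summits had IRF.

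FLI1-KO libraries had fewer tags per kb (6.93 and 6.86, against 8.04 and 8.84 for the WT libraries), so their peaks of few tags are the least certain. A list names no region under the caller's limit, so a missing peak sets no level. With 1 library per group, clonal and library differences cannot be told apart from the genotype.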
